A study of Mus musculus with 6 samples.

Results

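Metallothioneins and zinc transporters are described here as a set of 10 genes that are driven by divalent metals or that move them across membranes, with the question whether low-dose nickel (Ni) evoked a metal response. The set holds the metallothioneins Mt1 and Mt2, the metal-sensing transcription factor Mtf1, the zinc exporters Slc30a1, Slc30a4 and Slc30a5, and the zinc importers Slc39a1, Slc39a8, Slc39a10 and Slc39a14. They were chosen by name, with earlier results of these data known, and all 10 were found once among the 54532 genes of the count table. The cells were primary bone marrow mesenchymal stem cells (BMSCs) of wild type mice, which are adherent marrow cells that can form osteoblasts. Both groups were kept for 7 days in osteogenic medium, to which, per the sample labels, ascorbic acid was added at 50 μg/mL, β-glycerophosphate at 10 mM and dexamethasone at 100 nM, and the Ni group also received 0.1 μM Ni. The dexamethasone concentration in the study's methods differs from that in the labels. RNA-seq was performed on 3 independent biological replicates per group, and the age and sex of the donor mice are not given for these cultures.

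Metallothioneins are small cysteine-rich proteins that bind zinc, copper and cadmium. Their genes are switched on by zinc and cadmium through MTF1, a zinc finger factor that binds metal response elements in promoters, and also by glucocorticoids such as dexamethasone. ZnT proteins (Slc30a genes) move zinc out of the cytosol into vesicles or out of the cell, and ZIP proteins (Slc39a genes) move zinc into the cytosol.

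Since MTF1 acts through metal response elements, the 250 bases before the transcription start are shown for the 3 members best known as its targets. The start is the one that RefSeq annotates on GRCm38.p6. The Mt1 stretch is chr8:94178839-94179088, the Mt2 stretch chr8:94172368-94172617 and the Slc30a1 stretch chr1:191906531-191906780, all on the plus strand and read 5′ to 3′. Capitals mark matches to the core of the element, searched as TGCACNC or TGCGCNC on both strands.
Mt1: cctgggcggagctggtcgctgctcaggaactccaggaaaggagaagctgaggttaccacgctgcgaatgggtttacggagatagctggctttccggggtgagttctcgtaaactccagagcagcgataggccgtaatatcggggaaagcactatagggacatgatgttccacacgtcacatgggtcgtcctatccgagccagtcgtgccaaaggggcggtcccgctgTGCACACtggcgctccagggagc
Mt2: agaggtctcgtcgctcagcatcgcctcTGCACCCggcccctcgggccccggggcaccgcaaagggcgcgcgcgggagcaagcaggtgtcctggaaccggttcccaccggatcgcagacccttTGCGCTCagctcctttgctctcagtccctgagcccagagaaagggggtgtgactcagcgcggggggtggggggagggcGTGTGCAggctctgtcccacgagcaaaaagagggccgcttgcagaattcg
Slc30a1: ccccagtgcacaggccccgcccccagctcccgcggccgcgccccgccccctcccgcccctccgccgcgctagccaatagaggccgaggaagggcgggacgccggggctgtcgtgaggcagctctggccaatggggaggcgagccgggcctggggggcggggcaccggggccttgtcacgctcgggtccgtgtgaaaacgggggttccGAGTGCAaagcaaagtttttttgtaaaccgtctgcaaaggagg
The Mt1 stretch held 1 match, the Mt2 stretch 3 and the Slc30a1 stretch 1. Over the whole RefSeq window, which adds the 50 bases after the start, Mt1 had 3 matches, Mt2 had 4 and Slc30a1 had 2. Among the other members, Slc30a4 had 3 matches, Slc30a5 had 1 and the second of the annotated starts of Slc39a8 had 1. None lay in the windows of Mtf1, Slc39a1 and Slc39a10, and Slc39a14 was not among the windows used. Thus 6 of the 11 windows of the 9 members with a window held at least 1 match, and 25.7% of all 32851 windows did. At least 3 matches, as in the windows of Mt1, Mt2 and Slc30a4, occurred in 1.97% of all windows. A match describes the letters and does not show that MTF1 binds there. The printed stretches depend on the RefSeq start and need not hold the whole promoter. In Mt1, the matches that begin at bases 3 and 21 after that start lie outside the printed stretch. Bases more than 50 after the start were not searched. The 1 match printed for Mt1 is therefore not a count for its whole promoter. For Mt2 the RefSeq start, chr8:94172618, differs from the start of the gene in the deposited annotation, chr8:94172664.

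**Figure D1:**
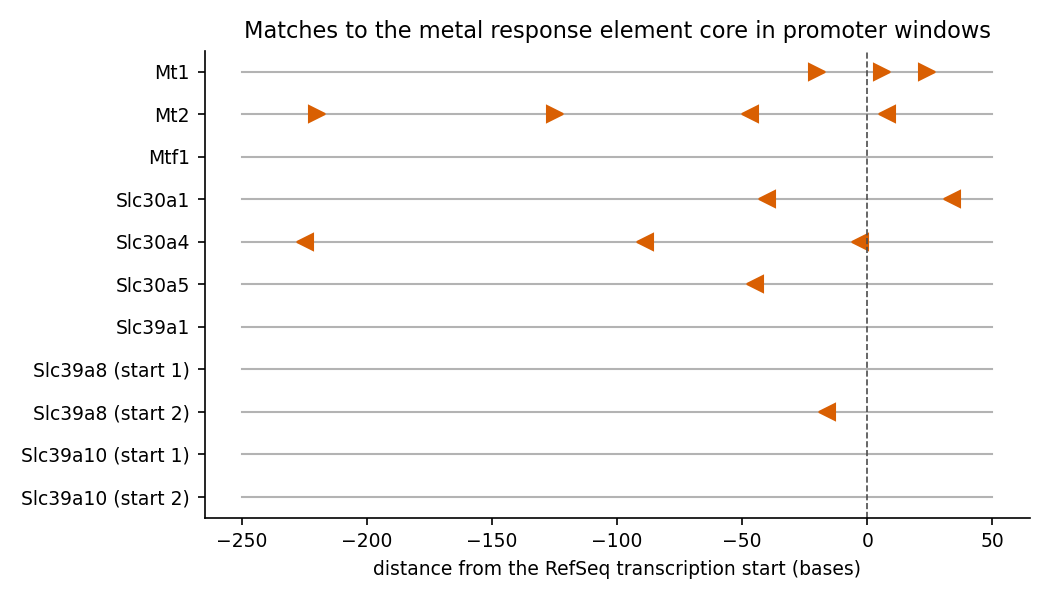
Matches to the metal response element core in the RefSeq promoter windows of 9 members (11 windows, 300 bases each), by distance in bases from the annotated transcription start (dashed line); triangles point right for the plus and left for the minus orientation of the motif. Mt2 has 4 matches, Mt1 and Slc30a4 have 3 each, and the windows of Mtf1, Slc39a1 and Slc39a10 have none.

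The 6 libraries held from 16101033 to 18642504 counted reads. Of all genes, 14624 passed the filter on low counts and were tested with edgeR's quasi-likelihood test and Benjamini-Hochberg adjustment. At an adjusted p under 0.05, 0 genes were called, which is 0% of those tested, while 1963 genes (13.4%) had an unadjusted p under 0.05. DESeq2's Wald test on the same 14624 genes, an alternative added after the data had been seen, called 264 at an adjusted p under 0.05. Control replicate 3 weighed most on these counts, since 2283 genes passed without it. The 2 members that passed only without this library in that comparison are given with and without it. Genes of the wider lists are given with all libraries only. Markers of macrophages were abundant in cultures labelled as mesenchymal stem cells. The summed level of 13 such genes lay between 26068 and 31018 CPM (counts scaled to library size) in control and between 26158 and 26916 CPM in Ni. None of the 13 was at 0 in any library. At an unadjusted p under 0.05 in edgeR's test, 4 of the 13 had lower values in Ni, beside 5.83% of all genes tested. The summed level of 12 stromal and osteoblast markers lay between 11523 and 19048 CPM in control and between 23662 and 31115 CPM in Ni. In these bulk samples, fewer cells of a type and less RNA per cell cannot be told apart. An exact permutation test of 3 against 3 libraries cannot give a two-sided p below 0.1.

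No member passed the test: 0 of the 10 had an adjusted p under 0.05, as did 0% of all genes tested. All 10 passed the filter, in which 4 had a positive and 6 a negative log2 fold change, with a median of -0.05 against -0.01 over all genes tested. The adjusted p of the members lay between 0.349 and 0.920 in edgeR's test. The control and Ni libraries separated without overlap in 0 of the 10 members and in 14.7% of all tested genes. With 10 genes this is not read as a difference. The canonical readouts of MTF1, which are Mt1, Mt2 and Slc30a1, all had point estimates below 0, and the upper 95% limits of their folds were 1.06, 1.33 and 1.05 in that order. An increase of Mt1 or Slc30a1 RNA beyond those limits was therefore outside the interval the libraries gave.

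**Figure D2:**
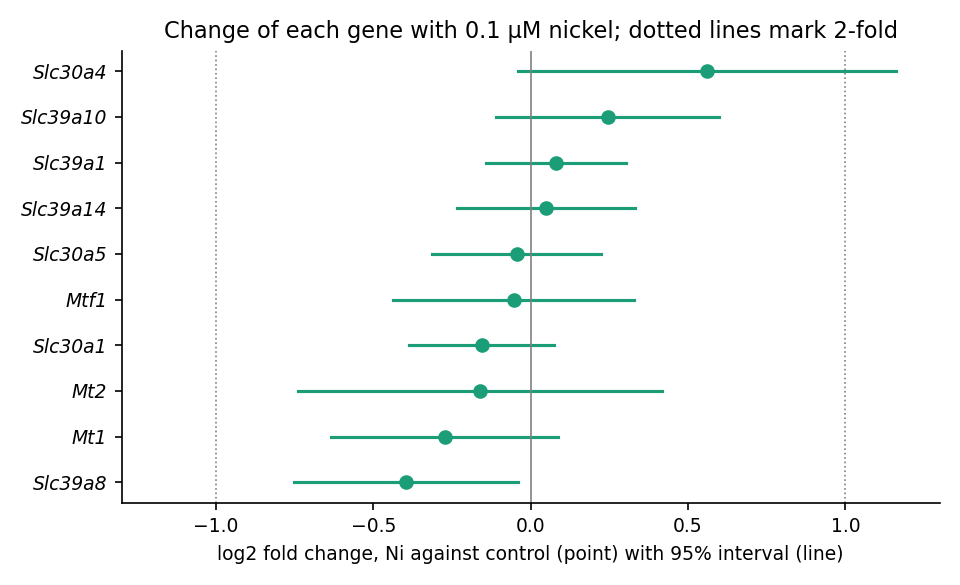
Log2 fold change of Ni against control for the 10 members (points) with 95% intervals (lines) from edgeR's quasi-likelihood fit on 3 control and 3 Ni libraries; dotted lines mark a 2-fold change in either direction. Slc30a4 has the highest estimate at 0.56 and Slc39a8 the lowest at -0.39, and the interval of Slc39a8 alone does not reach 0.

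By level per length, in FPKM (read counts scaled to gene length and library size), the members fell into 4 tiers between which no library overlapped. Mt1 and Slc39a1 were highest, with means of 96.1 and 95.5 FPKM over the 6 libraries, and their ranges overlapped. The 1246 bases used as the length of Mt1 cover its whole annotated locus. Any shorter spliced form of Mt1 would have a higher level per length, so its place beside Slc39a1 depends on that length. Slc30a5 followed alone at 13.2 FPKM. Slc30a1, Mt2, Slc39a14, Slc30a4 and Slc39a10 formed the next tier, from 5.84 down to 5.13 FPKM, and each overlapped its neighbour in the order. Mtf1 and Slc39a8 were lowest, at 2.42 and 1.74 FPKM, with overlapping ranges. The most abundant transcripts of the set thus belonged to a metallothionein and to the plasma membrane importer ZIP1, and that of the sensor MTF1 was among the scarcest.

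**Figure D3:**
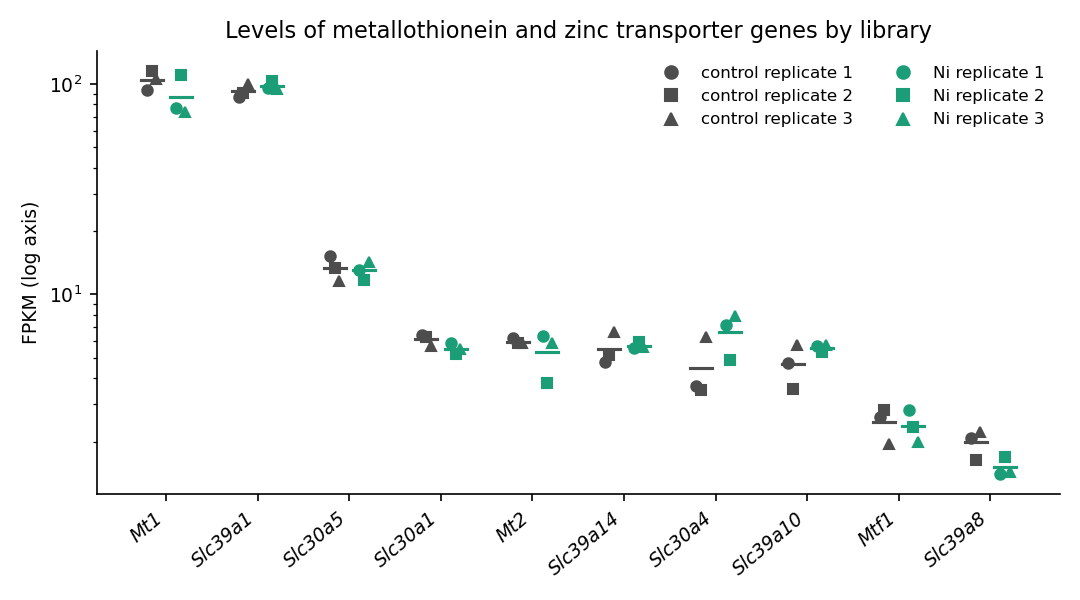
FPKM of each member in each of the 6 libraries on a log axis, with control replicates in grey and Ni replicates in green and a bar at each group mean (n = 3). Mt1 and Slc39a1 lie between 73.4 and 115.5 FPKM in every library, and the other 8 members lie at or below 15.3 FPKM.

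Mt1 (ENSMUSG00000031765, chr8:94179082-94180327 on GRCm38, plus strand) encodes metallothionein 1, a main zinc-buffering and inducible protein of the family. Its level was 93.6, 115.5 and 106.3 FPKM in control replicates 1 to 3 and 77.2, 110.7 and 73.4 FPKM in Ni replicates 1 to 3. Ni replicates 1 and 3 were below every control, but Ni replicate 2 lay between controls 2 and 3, so the groups overlapped. The mean was 132 ± 13.8 CPM in control and 109 ± 26.2 CPM in Ni (SD, n = 3). This gave a log2 fold change of -0.27 ± 0.16 (SE), with a 95% interval from -0.63 to 0.09 and an adjusted p of 0.478 in edgeR's test (exact permutation p = 0.3, two-sided). Without Ni replicate 2 the log2 fold change was -0.48, with an adjusted p of 0.165 in edgeR's test. It stayed negative with each of the 6 libraries left out, between -0.48 and -0.16.

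The library pattern of Mt1 had the same signs as the median pattern of short genes, but the shorter Mt2 did not share it. Relative to its mean over the 6 libraries, log2 CPM of Mt1 (1246 bases) deviated by -0.017, 0.29 and 0.17 in control replicates 1 to 3 and by -0.30, 0.23 and -0.37 in Ni replicates 1 to 3. Over the 1771 tested genes of at most 1500 bases, the median deviations were -0.0027, 0.093 and 0.055 in control and -0.048, 0.052 and -0.077 in Ni. These genes had a median log2 fold change of -0.09, compared with 0.00 over the 4134 genes above 6000 bases. Mt2 (588 bases) deviated by 0.144, 0.067 and 0.073 in control and by 0.176, -0.534 and 0.074 in Ni. Its signs were opposite to those of Mt1 in control replicate 1 and in every Ni library. The part of transcript length in the Mt1 values was not tested. Genes other than Mt2 with a mean of at least 10 CPM were also ordered by likeness of log2 CPM to Mt1 across the 6 libraries. The most alike were Ptpn7 (6102 bases, Pearson r = 0.999), Plk3 (2531 bases, r = 0.998) and Get4 (2431 bases, r = 0.996). Each of them is longer than 1500 bases. These correlations are descriptions over 6 libraries, whose values for all genes share the same library totals.

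Mt2 (ENSMUSG00000031762, chr8:94172664-94173568, plus strand), the neighbour of Mt1 on chromosome 8 and usually induced with it, was far less counted. Reads numbered 67, 55 and 58 in the controls and 69, 39 and 63 in Ni, or 6.19, 5.85 and 5.86 against 6.35, 3.78 and 5.89 FPKM. Ni replicate 2, which had the highest Mt1 of its group, had the lowest Mt2 of all 6 libraries, and the other 5 libraries lay close together. The log2 fold change was -0.16 ± 0.26 (SE; 95% interval -0.74 to 0.42), with an adjusted p of 0.826 in edgeR's test (exact permutation p = 0.9, two-sided). Its direction turned to 0.03 without Ni replicate 2.

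The scarcity of Mt2 reads coincided with an overlap in the annotation. Of the 588 exon bases of Mt2, 432 (73.5%) lie under an exon of Gm45774 (chr8:94170748-94173412), a gene on the opposite strand, which leaves 156 bases, chr8:94173413-94173568, that belong to Mt2 alone. Gm45774 itself held 9 reads over all 6 libraries. The library kit does not mark strand, and how reads over the shared bases were assigned is not given in the sources used here. The level of Mt2 is therefore uncertain, and the part of the overlap in its low count was not tested. Mt1 shared none of its exon bases with another gene.

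The ratio of Mt1 to Mt2 reads within a library does not depend on library scaling. It was 32.1, 41.8 and 38.4 in the controls and 25.8, 62.1 and 26.4 in Ni, so that Ni replicates 1 and 3 were lowest and Ni replicate 2 highest, with the controls between them. On the log2 scale the mean was 5.22 ± 0.196 in control and 5.12 ± 0.723 in Ni (SD, n = 3), a difference of -0.10 (exact permutation p = 0.9, two-sided). The other metallothioneins were close to undetected. Mt3, the brain-enriched form, had 3 reads in all, which came from control replicate 2, and Mt4, the form of stratified epithelia, had 0 reads in every library.

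Mtf1 (ENSMUSG00000028890, chr4:124802104-124849800, plus strand), the zinc sensor that drives metallothionein transcription, was measured at 2.63, 2.83 and 1.95 FPKM in control and 2.83, 2.33 and 1.98 FPKM in Ni. The third replicate was lowest in each group and the groups overlapped almost fully. Its log2 fold change was -0.05 ± 0.17 (SE; 95% interval -0.44 to 0.33; adjusted p = 0.920, edgeR). MTF1 is known to be regulated largely at the level of the protein.

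Among the exporters, Slc30a1 (ENSMUSG00000037434, chr1:191906767-191913247, plus strand) encodes ZnT1, the plasma membrane exporter that MTF1 induces when zinc is high. It stood at 6.44, 6.31 and 5.71 FPKM in control and at 5.86, 5.23 and 5.50 FPKM in Ni. Ni replicates 2 and 3 lay below every control, and Ni replicate 1 lay above control replicate 3. The log2 fold change of -0.16 ± 0.10 (SE; 95% interval -0.39 to 0.07) did not pass edgeR's test (adjusted p = 0.534; exact permutation p = 0.2, two-sided). It remained negative in all 16 alternative analyses.

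Slc30a4 (ENSMUSG00000005802, chr2:122681233-122702663, minus strand) encodes ZnT4, an exporter of endosomal and lysosomal vesicles. Its level was 3.65, 3.52 and 6.30 FPKM in control and 7.18, 4.86 and 7.87 FPKM in Ni. Control replicates 1 and 2 were below every Ni library, while control replicate 3 exceeded Ni replicate 2. The mean was 24.8 ± 8.69 CPM in control and 36.6 ± 8.56 CPM in Ni (SD, n = 3). With all libraries the log2 fold change was 0.56 ± 0.26 (SE; 95% interval -0.04 to 1.16), with an adjusted p of 0.394 in edgeR's test (exact permutation p = 0.2, two-sided). Without control replicate 3 it was 0.89, with an adjusted p of 0.00672 in edgeR's test, in a comparison where 8.69% of all genes tested were called higher. With no filter on low counts the adjusted p was 0.00745 in edgeR's test, where 2.55% of all genes were called higher. The estimate was above 0 with each library left out, from 0.41 without control replicate 2 to 0.89.

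The order of the libraries in Slc30a4 partly resembled that of the summed stromal and osteoblast markers. The summed level of those 12 genes was 11523, 12100 and 19048 CPM in control replicates 1 to 3 and 31115, 23662 and 30421 CPM in Ni replicates 1 to 3. In both measures control replicates 1 and 2 were lowest, and Ni replicates 1 and 3 were highest. Control replicate 3 was above Ni replicate 2 in Slc30a4 and below it in the sum. The matrix genes Col1a1 and Col1a2 were the largest parts of the sum in both groups. Of the 12 genes, 9 had a log2 fold change above 0 and 3 below, which were Thy1 (-0.07), Lepr (-0.13) and Cxcl12 (-0.47). The part of cell composition in the Slc30a4 values was not tested.

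Slc30a5 (ENSMUSG00000021629, chr13:100802648-100833427, minus strand) encodes ZnT5, which loads zinc into the secretory pathway for enzymes such as alkaline phosphatase. It was measured at 15.3, 13.4 and 11.6 FPKM in control and 13.1, 11.7 and 14.3 FPKM in Ni, and every Ni value lay within the control range. ZnT5 RNA had a log2 fold change of -0.05 ± 0.12 (SE; 95% interval -0.31 to 0.22; adjusted p = 0.903, edgeR).

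Over the whole ZnT family of 10 genes, 6 passed the filter and none had an unadjusted p under 0.05 in edgeR's test, which 13.4% of all genes had. Their median log2 fold change was -0.02. Slc30a2, Slc30a8 and Slc30a10 had 0 reads in every library, and Slc30a3 had at most 4 in any library. ZnT5 was the most abundant ZnT transcript per length.

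Among the importers, Slc39a1 (ENSMUSG00000052310, chr3:90248172-90253612, plus strand) encodes ZIP1, a broadly expressed zinc importer of the plasma membrane. Its values were 87.3, 91.0 and 99.9 FPKM in control and 96.0, 103.7 and 95.1 FPKM in Ni. Control replicate 3 was within the Ni range, and controls 1 and 2 were below it. Its log2 fold change was 0.08 ± 0.10 (SE; 95% interval -0.14 to 0.30; adjusted p = 0.763, edgeR), an interval narrower than those of the other 9 members. Of its 50-base stretches, 21.8% also occur in the pseudogene Slc39a1-ps, so part of its reads may not be assignable to 1 gene.

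Slc39a8 (ENSMUSG00000053897, chr3:135825279-135888572, plus strand) encodes ZIP8, which carries zinc, manganese, iron and cadmium. It was the only member with an unadjusted p under 0.05 in edgeR's test, and 5.83% of all genes tested had such a p with a lower value in Ni. Its level was 2.09, 1.64 and 2.21 FPKM in control and 1.40, 1.69 and 1.44 FPKM in Ni. Ni replicates 1 and 3 were below every control, but Ni replicate 2 was above control replicate 2. The log2 fold change was -0.39 ± 0.16 (SE; 95% interval -0.75 to -0.04), with an unadjusted p of 0.0329 and an adjusted p of 0.349 in edgeR's test (exact permutation p = 0.2, two-sided). It was negative with each library left out, between -0.51 and -0.30, but without control replicate 1, control replicate 3, Ni replicate 1 or Ni replicate 3 the unadjusted p rose to 0.0948, 0.0943, 0.110 and 0.0944. Macrophages are known to express ZIP8. The 13 macrophage markers had a median log2 fold change of -0.19, with 9 values below 0, the lowest that of Tyrobp at -0.45, and 4 above 0, the highest that of Mrc1 at 0.24. By library, their summed level was 26068, 26876 and 31018 CPM in control and 26916, 26158 and 26591 CPM in Ni. Control replicate 3 was highest in the sum and in Slc39a8. Control replicate 1 was lowest in the sum, but in Slc39a8 only control replicate 3 exceeded it. In the markers Ptprc, Itgam, Tyrobp and Fcer1g, control replicate 3 was the lowest control. The part of macrophages in the Slc39a8 values was not tested.

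Slc39a10 (ENSMUSG00000025986, chr1:46807544-46892852, minus strand) encodes ZIP10, an importer that MTF1 is known to repress. Its level was 4.74, 3.56 and 5.78 FPKM in control and 5.67, 5.32 and 5.73 FPKM in Ni. The 3 Ni libraries lay close together, and control replicate 3 was above all of them. With all libraries the log2 fold change was 0.24 ± 0.16 (SE; 95% interval -0.11 to 0.60), with an adjusted p of 0.525 in edgeR's test. Without control replicate 3 it was 0.43, with an adjusted p of 0.048 in edgeR's test, again beside 8.69% of all genes called higher. Without control replicate 2, the lowest library, it was 0.08, with an adjusted p of 0.956 in edgeR's test.

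**Figure D4:**
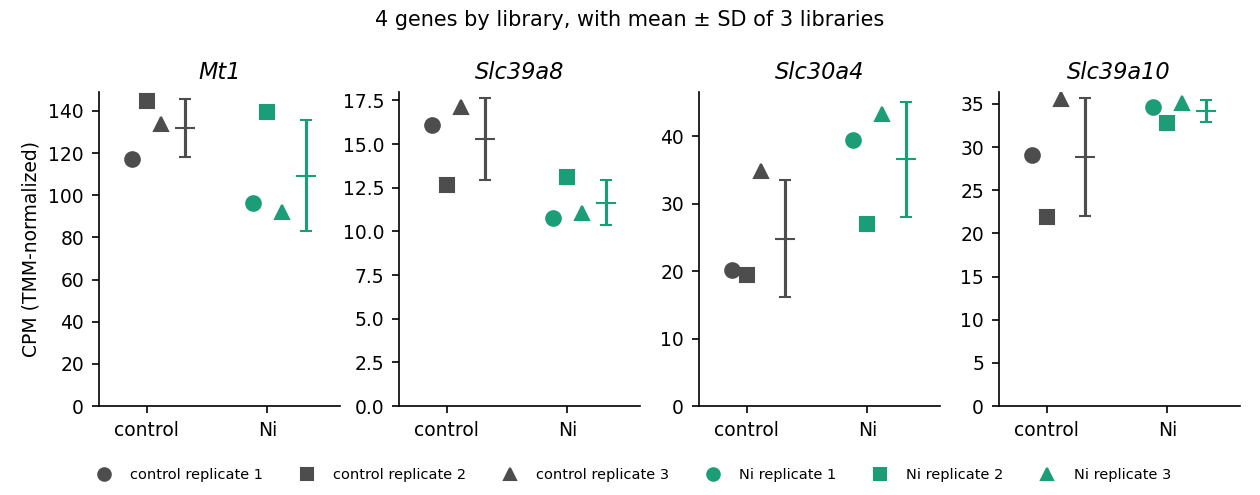
TMM-normalized CPM of Mt1, Slc39a8, Slc30a4 and Slc39a10 in each library, with the mean ± SD of the 3 libraries of each group beside the points; axes start at 0. The groups overlap in all 4 genes, through Ni replicate 2 in Mt1 and Slc39a8 and through control replicate 3 in Slc30a4 and Slc39a10.

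Slc39a14 (ENSMUSG00000022094, chr14:70303469-70351425, minus strand) encodes ZIP14, which carries zinc, iron and manganese and is induced in inflammation. It was measured at 4.76, 5.18 and 6.61 FPKM in control and 5.58, 5.97 and 5.61 FPKM in Ni, so that all Ni values fell within the control range. ZIP14 RNA had a log2 fold change of 0.05 ± 0.13 (SE; 95% interval -0.23 to 0.33; adjusted p = 0.898, edgeR).

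In the ZIP family of 14 genes, 13 passed the filter, and Slc39a8 was the only one with an unadjusted p under 0.05 in edgeR's test. The family's median log2 fold change was -0.02, with 6 values above 0 and 7 below. Slc39a2 did not pass the filter, with 0 to 16 reads in a library. ZIP1 was the most abundant member per length, and ZIP13 (Slc39a13), an importer linked to connective tissue development, came next at 27.8 FPKM. Of the exon bases of Slc39a7, 2084 lie under another gene on the same strand, so its level of 1.71 FPKM is uncertain.

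**Figure D5:**
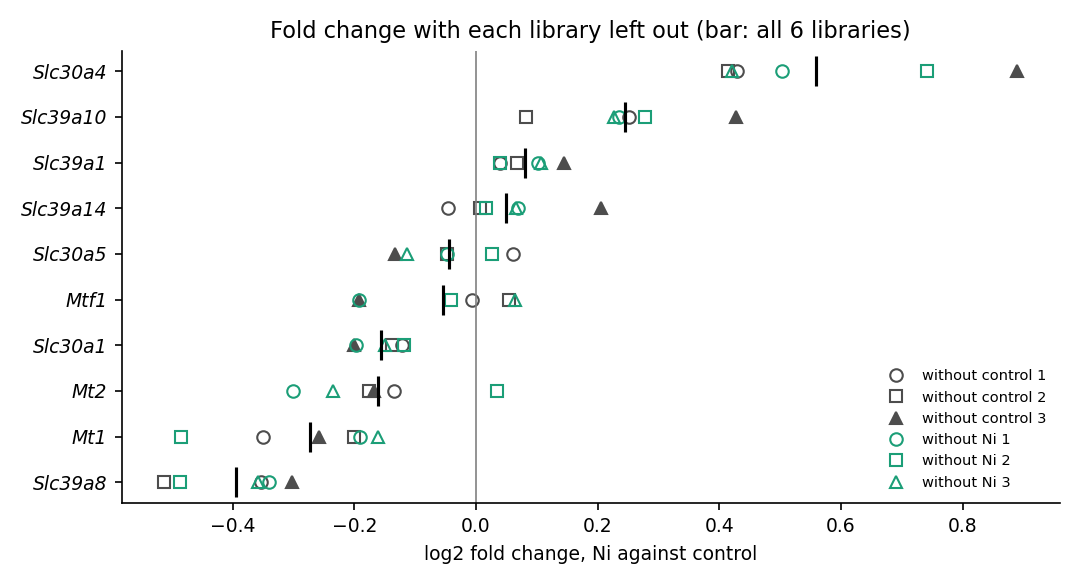
Log2 fold change of each member with each of the 6 libraries left out in turn (symbols) and with all libraries (bar), from edgeR's fit; the filled triangle is the value without control replicate 3. Slc30a4 spans 0.41 to 0.89, Mt1, Slc30a1 and Slc39a8 stay below 0, and Mt2, Mtf1, Slc30a5 and Slc39a14 have values on both sides of 0.

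Beyond zinc, the genes that MTF1 is reported to control and those that carry other metals were examined as lists, with no test of a list. Of 11 genes in the list of MTF1 and its reported targets, which includes 5 members, 0 were higher and 1 was lower in Ni at an unadjusted p under 0.05 in edgeR's test (7.59% and 5.83% of all genes), and the median log2 fold change was 0.08. The list mixes genes that MTF1 induces with Slc39a10, which it is known to repress. Its counts and median are therefore not a measure of MTF1 activity. The lower gene was Ndrg1, which also responds to hypoxia and nickel, at 797 ± 376 CPM in control and 397 ± 64.9 CPM in Ni (SD, n = 3). Its adjusted p in edgeR's test was 0.344 and its groups overlapped. Ndrg1 stood at 974, 1051 and 366 CPM in control replicates 1 to 3 and at 405, 458 and 329 CPM in Ni replicates 1 to 3. Control replicate 3 thus lay within the Ni range.

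Of 19 genes for other divalent metal and copper transport, 17 passed the filter, and in edgeR's test 4 had an unadjusted p under 0.05 (1 above and 3 below the control level), with a median log2 fold change of -0.04. Of all genes tested, 7.59% had such a p with a higher and 5.83% with a lower value in Ni. The lower genes were Slc11a1, a phagosomal metal transporter of macrophages (-0.52 ± 0.19, log2 fold change ± SE), Slc11a2, which encodes DMT1 and carries iron, manganese and nickel (-0.38 ± 0.14), and Slc31a2, a copper transporter (-0.39 ± 0.14). In each of these lower genes control replicate 3 lay within the Ni range. It stood at 378 CPM in Slc11a1 (Ni 363 to 411), 152 in Slc11a2 (Ni 139 to 158) and 93.1 in Slc31a2 (Ni 87.7 to 96.6). The higher gene was Slc41a1, a magnesium transporter (0.30 ± 0.12), whose groups did not overlap, as in 14.7% of all genes tested. None passed edgeR's test after adjustment, with adjusted p values from 0.323 to 0.353. Atp7b, a copper pump, and Tmem163, a zinc transporter, were below the filter.

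Of 10 genes of heavy metal and oxidative stress, all passed the filter and 1 was higher at an unadjusted p under 0.05 in edgeR's test, beside 7.59% of all genes. This was Hspa1a, an inducible HSP70 gene, at 2.89 ± 1.40 CPM in control and 5.10 ± 0.373 CPM in Ni (SD, n = 3; adjusted p = 0.346, edgeR). Hmox1, the heme oxygenase gene that metals and oxidants induce, had a log2 fold change of -0.02 ± 0.09 (SE) at 318 and 314 CPM. The median over the list was 0.06, and its summed level lay between 655 and 708 CPM in control and between 674 and 686 CPM in Ni.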

How the data were processed

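RNA-seq was performed on 3 control and 3 Ni cultures, with libraries prepared from fragmented mRNA with a NEBNext Ultra kit, which does not mark strand. The authors deposited raw counts per gene without normalization, and FPKM values, which equal the deposited counts divided by gene length and 1 factor per library (largest relative deviation 3.29e-07). The submitters' processing notes name GRCm38. The aligner, counting tool and strand setting are not given in the sources used here.

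Counts were filtered with filterByExpr, normalized by TMM and tested in R 4.3.3 by edgeR 4.0.16, whose robust quasi-likelihood test was run on 14624 genes (prior count 0.125). P-values were adjusted over all of them by the Benjamini-Hochberg method. SEs and 95% intervals come from this fit. Exact permutation tests used log2 CPM (prior count 2). Separation of the groups was judged on the same values. Alternatives were DESeq2 1.42.0 size factors and Wald test (with its own filter and, added after the data had been seen, on the same genes), library totals, other filters, thinning to 16101033 reads, limma 3.58.1 on log2(FPKM + 1) and log2(FPKM + 0.1), a replicate block and each library left out. Gene overlaps and shared 50-base stretches were read from GENCODE M21, in which all 10 members have the coordinates of the deposited annotation. Promoter windows are RefSeq's.

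The members and gene lists were chosen with earlier results of these data known. The text names the 10 members, list genes at an unadjusted p under 0.05 or, in a list with none, the gene of highest mean FPKM, list genes below the filter, and the 3 genes most like Mt1. Slc39a13, Slc39a7, Gm45774, Hmox1 and Slc39a1-ps were named after values had been seen. Deviations from the group means correlated at 0.010, 0.26 and 0.14 between samples of the same replicate number. Correlations between unlike numbers were not computed, so these values cannot decide whether the numbers pair the cultures. The main fit used no pairing because the sources do not say that the numbers pair cultures. Libraries of a group differed by more than sampling noise. Intervals and p-values cover the spread between 3 cultures per group.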

Additional observations from a re-analysis of the deposited data

How the results depend on the processing

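The 10 members were refitted under 16 alternatives each. Of these 160 values, 151 kept their direction and side of the adjusted threshold, 3 newly passed it and 6 reversed. The reversals all came from leaving out 1 library: Mt2 (range -0.30 to 0.034) without Ni replicate 2, Mtf1 (-0.19 to 0.064) without control replicate 2 or Ni replicate 3, Slc30a5 (-0.13 to 0.060) without control replicate 1 or Ni replicate 2, and Slc39a14 (-0.046 to 0.21) without control replicate 1. The cause was not tested. No alternative scaling, filter or tool turned the direction of a member.

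The number of members at an adjusted p under 0.05, which was 0, became 1 (Slc30a4) with no filter on low counts and from 0 to 2 with each library left out; the 2 were Slc30a4 and Slc39a10, without control replicate 3. The number at an unadjusted p under 0.05, which was 1 (beside 13.4% of all genes), was 2 with DESeq2's Wald test on the same genes (13.7%) and 2 with its own filter (7.81%), 4 with no filter (11.8%), 0 with limma on either FPKM scale (12%), 3 with the replicate block (18.9%) and from 0 to 3 with each library left out (from 5.79% to 27.4%). Over all genes, the calls at an adjusted p under 0.05 were 0 with edgeR on 14624 genes, 264 with DESeq2 on the same genes, which was chosen after seeing the data, 257 with DESeq2 on 25876 genes, 1027 with edgeR on 25876 genes (no filter), 315 with the replicate block, and from 0 to 2283 with each library left out (13 without Ni replicate 2 and 2283 without control replicate 3). With the replicate block, Mt1 had an adjusted p of 0.169 and Slc30a4 one of 0.064, so no member was called. The log2 ratio of Mt1 to Mt2 reads differed by 0.12 without Ni replicate 1 and by 0.10 without Ni replicate 3, against -0.10 with all libraries, and ranged from -0.51 to 0.12.

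Depth limits Mt2 most, with 39 to 69 reads a library. The other members had at least 198 reads in every library.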

Other observations

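Nickel is known to induce hypoxia genes. Of 9 such genes, 6 were higher in Ni at an unadjusted p under 0.05 in edgeR's test and 2 were lower, with a median log2 fold change of 0.49, while none passed after adjustment. Over all genes tested, 7.59% were higher and 5.83% lower by that rule. The control and Ni libraries did not overlap in 2 of the 9 genes, Egln3 and Pdk1, against 14.7% of all genes. The higher genes were Pdk1, a kinase that limits pyruvate oxidation (0.59 ± 0.15, log2 fold change ± SE), Bnip3, a mitophagy receptor (0.70 ± 0.21), Egln3, a prolyl hydroxylase (0.76 ± 0.30), Vegfa (0.50 ± 0.19), Ankrd37 (0.49 ± 0.20) and the glucose transporter gene Slc2a1 (0.34 ± 0.12). The lower genes were Ndrg1 (-1.01 ± 0.37) and Adm, which encodes the peptide adrenomedullin (-0.28 ± 0.11). The adjusted p of Pdk1 in edgeR's test was 0.262.

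Glucocorticoid targets were read because dexamethasone in the medium also acts on metallothionein genes. They included 1 gene of 8 at an unadjusted p under 0.05 in edgeR's test, Sgk1 (0.40 ± 0.15), and had a median log2 fold change of 0.11. Over all genes tested, 7.59% were higher and 5.83% lower at that threshold. Of the 12 stromal and osteoblast markers, 7 were higher and 1 was lower at an unadjusted p under 0.05, with a median of 0.71. This stood beside 7.59% and 5.83% of all genes. Pdgfrb (0.21 ± 0.11), Pdgfra (0.07 ± 0.09), Thy1 (-0.07 ± 0.37) and Lepr (-0.13 ± 0.15) did not pass that threshold. The higher genes were the collagen genes Col1a1 (1.13 ± 0.24) and Col1a2 (0.97 ± 0.21), the osteoblast transcription factors Runx2 (0.54 ± 0.13) and Sp7 (0.88 ± 0.18), and the mineralization genes Alpl (1.07 ± 0.26), Bglap (1.68 ± 0.47) and Ibsp (1.70 ± 0.51), and the lower gene was Cxcl12 (-0.47 ± 0.14). Among 13 macrophage markers, Ptprc (-0.36 ± 0.14), Itgam (-0.40 ± 0.13), Tyrobp (-0.45 ± 0.18) and Fcer1g (-0.45 ± 0.16) were lower at an unadjusted p under 0.05, beside 5.83% of all genes. The median of the 13 was -0.19. Mrc1 (0.24 ± 0.21), Cd68 (0.05 ± 0.11), Lyz2 (0.02 ± 0.19) and Csf1r (0.01 ± 0.11) had estimates above 0 and did not pass that threshold. None of these genes passed edgeR's test after adjustment.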
